A study of Mus musculus with 7 samples.

Results

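Mitosis and spindle genes encode the proteins that condense the chromosomes, build the spindle, attach and separate sister chromatids and divide the cytoplasm. A list of 42 such genes, named by function, was read in erythroblasts with and without Sod2, the enzyme that removes superoxide inside mitochondria. On the array used, 41 of the 42 genes had at least 1 probe set matched to them alone, of 18193 genes that did. These 41 genes had 94 probe sets among the 45037 that were tested. Ccnb1, which encodes cyclin B1, was not analysed here. For each gene the probe set with the highest mean signal over all arrays was used, and the others were set beside it.

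TER-119+ CD71+ erythroblasts were sorted from the marrow of female C57BL/6 mice rebuilt with fetal liver stem cells. By the study's account the sort gate pooled several erythroblast stages, and Sod2-/- marrow held a larger share of early, basophilic erythroblasts. The part of stage in the values below was not tested. The donors were Sod2+/+ or Sod2-/- littermates at embryonic day 13.5 to 16.5, bred from mice heterozygous for B6-Sod2tm1Cje, and the hosts were lethally irradiated Ly5.1 congenic mice of 11 to 15 weeks. There were 4 Sod2+/+ arrays (replicates 17, 29, 33 and 37) and 3 Sod2-/- arrays (replicates 31, 35 and 39), and values below are listed in that order. Both groups shared the transplantation, irradiation and wild-type host, so the deletion was carried by donor cells alone, and any host cell left in the marrow would have kept Sod2. The sources used here do not give the age at which marrow was taken, and 1 more array of Sod2-/- cells was not analysed here. The 4 probe sets matched to Sod2 had log2 fold changes (Sod2-/- minus Sod2+/+) from -0.10 to 0.09, with overlapping genotypes and none called. By the study's account the deleted gene is still transcribed and some of its probe sets lie outside the deletion, and which ones was not analysed here, so these values do not check the labels. Pairs of one sample of each genotype were sorted side by side, and the labels do not say which samples formed a pair.

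In a dividing cell, cyclins A and B switch on the kinase CDK1, after which Aurora and Polo-like kinases organise the spindle and the kinetochores bind its microtubules. The spindle checkpoint (Bub1, Bub1b, Bub3, Mad2l1 and Ttk) keeps Cdc20 from activating the anaphase-promoting complex until the chromosomes are attached. Separase (Espl1), once freed from securin (Pttg1), then cuts the cohesin rings, and the chromosomal passenger complex and centralspindlin guide the final cleavage. Erythroblasts divide rapidly, and their last mitosis precedes the loss of the nucleus. Many of these genes are transcribed late in the cell cycle through a cell cycle homology region (CHR) and CCAAT boxes in their promoters.

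The mitosis and spindle genes were strongly detected in both genotypes and differed little between them. Bub3 was the 1 gene of 41 that passed limma's test (adjusted p under 0.05), 1.25-fold lower in Sod2-/- erythroblasts, and 0 genes were higher. Over all 18193 genes, 4.47% were called lower and 0.412% higher. With no adjustment of p and the same threshold, 12 of the 41 genes were lower and 0 higher, where 18.4% and 6.68% of all genes were. The median log2 fold change (Sod2-/- minus Sod2+/+) was -0.19, with a range from -0.68 (Kif20a) to 0.08 (Racgap1), and the median of all genes was 0.02. The log2 fold change was below 0 in 34 genes and above 0 in 7, where 45.8% of all genes were below 0. In 7 genes (Ccnb2, Cdk1, Bub3, Mad2l1, Spc25, Espl1 and Smc4) every Sod2-/- array lay under every Sod2+/+ array, and in 0 genes above. Over all genes that was so for 14.8% and 7.19%. These are the counts for values as deposited, and the sign of the median depended on the scaling: after quantile normalization it was 0.02, with 18 genes below 0 and 23 above, and 0 genes were called (2.78% of all genes lower and 1.43% higher on that scale).

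For the brightest probe sets and values as deposited, the 95% intervals of limma show how large a change the arrays could have hidden. For 31 of the 41 genes the whole interval lay within 1.5-fold of no change in either direction, and for 40 it lay within 2-fold. The interval of 10 genes reached past 1.5-fold lower and that of 0 genes past 1.5-fold higher. The outermost bounds were -1.12 (Kif20a) and 0.36 (Cenpe) on the log2 scale. These intervals were not adjusted for the number of genes, and 29 of them held 0. Intervals of some dimmer probe sets reached further in both directions, to 0.95 for Top2a and to -1.32 for Smc2. Quantile normalization moved the median of the list up by 0.21, so the bounds depend on probe set and scaling.

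**Figure D1:**
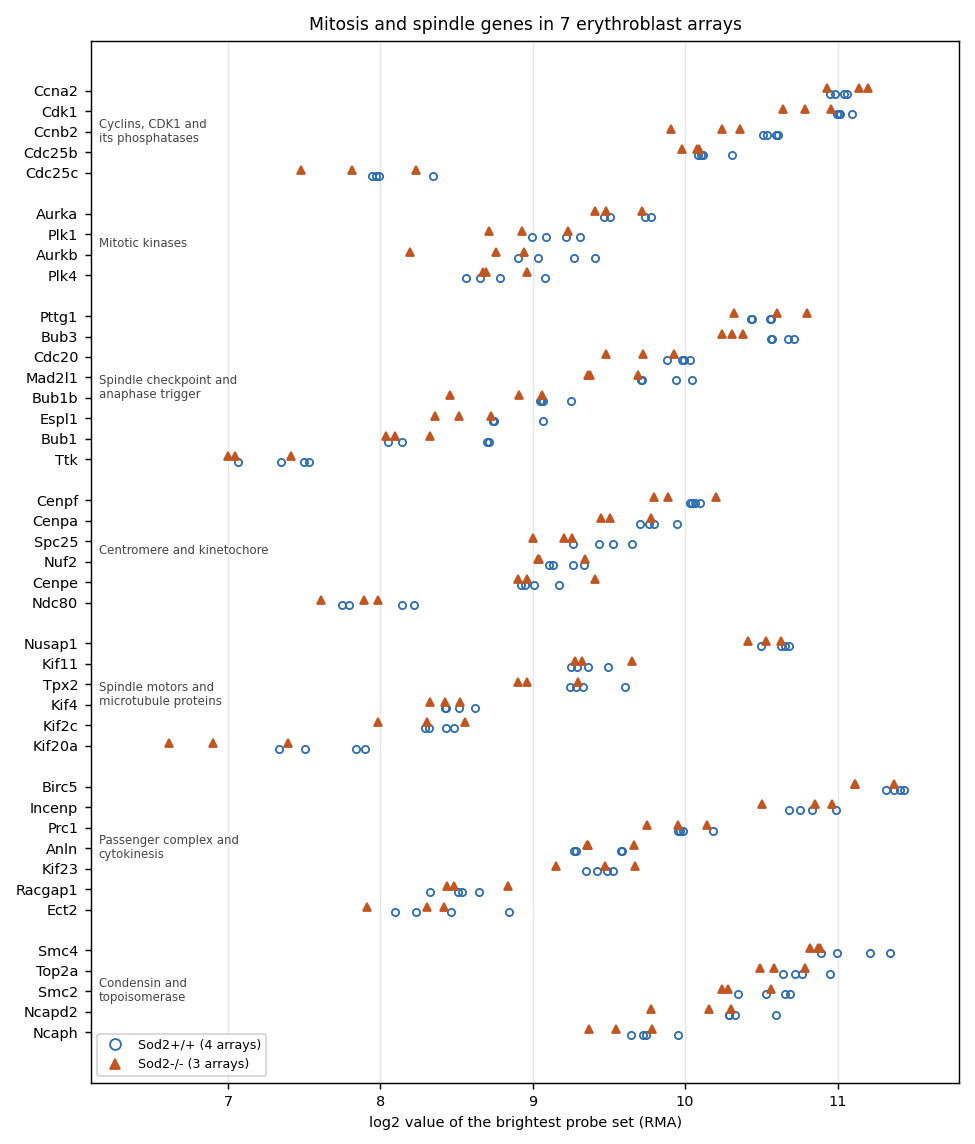
Log2 value (RMA) of the brightest probe set of each of 41 mitosis and spindle genes, on the x axis, in each of 4 Sod2+/+ arrays (open circles) and 3 Sod2-/- arrays (triangles), with genes grouped by role along the y axis. The genotypes overlap in 34 genes and the Sod2-/- arrays lie lower in 7 (17.1%), Bub3 and Ccnb2 among them. They lie lower in 14.8% of all genes and in 37.1% of genes in the same signal range.

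Promoter sequences of 6 genes are shown because all but that of Mad2l1 carry motifs through which mitotic genes are known to be timed. The genes also differ in the sign of their genotype difference, as read by the brightest probe sets. Bub3 (the first of its 2 promoters in the table), Ccnb2, Cdk1 and Mad2l1 had log2 fold changes below 0 with separate genotypes, Racgap1 had the highest value of the list, and Ube2c, a partner enzyme of the anaphase-promoting complex outside the list, was called higher. Sequences are from RefSeq (GRCm38.p6), from 250 bases before to 50 bases after the start of the gene, written 5′ to 3′ on the strand of the gene. Capitals mark the CHR, searched as the letters TTTGAA and as the letters TTCGAA, and the CCAAT box, each on either strand.
Bub3 (chr7:131560120-131560419, + strand): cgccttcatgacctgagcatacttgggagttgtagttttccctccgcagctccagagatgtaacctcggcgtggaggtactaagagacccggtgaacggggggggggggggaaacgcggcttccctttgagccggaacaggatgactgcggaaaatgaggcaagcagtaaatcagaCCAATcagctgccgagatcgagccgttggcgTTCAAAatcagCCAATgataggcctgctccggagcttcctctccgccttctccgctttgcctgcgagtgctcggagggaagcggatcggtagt
Ccnb2 (chr9:70421505-70421804, - strand): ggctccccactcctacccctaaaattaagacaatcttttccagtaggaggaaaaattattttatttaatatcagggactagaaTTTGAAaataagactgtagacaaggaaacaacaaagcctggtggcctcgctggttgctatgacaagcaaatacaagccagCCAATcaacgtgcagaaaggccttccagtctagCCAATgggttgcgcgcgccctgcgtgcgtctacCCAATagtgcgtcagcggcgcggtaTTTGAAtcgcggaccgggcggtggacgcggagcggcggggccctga
Cdk1 (chr10:69352863-69353162, - strand): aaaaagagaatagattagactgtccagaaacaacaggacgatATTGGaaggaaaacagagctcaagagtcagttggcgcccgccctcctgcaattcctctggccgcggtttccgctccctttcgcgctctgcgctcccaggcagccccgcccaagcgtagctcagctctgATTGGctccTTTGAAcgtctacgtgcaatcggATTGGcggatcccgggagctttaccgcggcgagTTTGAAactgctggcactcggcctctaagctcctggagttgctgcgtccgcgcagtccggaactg
Mad2l1 (chr6:66534971-66535270, + strand): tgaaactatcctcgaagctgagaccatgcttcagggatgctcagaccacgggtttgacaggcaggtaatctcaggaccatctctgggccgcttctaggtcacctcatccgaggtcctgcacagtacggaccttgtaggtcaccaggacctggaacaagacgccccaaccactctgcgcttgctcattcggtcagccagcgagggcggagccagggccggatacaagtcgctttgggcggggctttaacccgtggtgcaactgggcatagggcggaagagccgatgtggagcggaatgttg
Racgap1 (chr15:99651607-99651906, - strand): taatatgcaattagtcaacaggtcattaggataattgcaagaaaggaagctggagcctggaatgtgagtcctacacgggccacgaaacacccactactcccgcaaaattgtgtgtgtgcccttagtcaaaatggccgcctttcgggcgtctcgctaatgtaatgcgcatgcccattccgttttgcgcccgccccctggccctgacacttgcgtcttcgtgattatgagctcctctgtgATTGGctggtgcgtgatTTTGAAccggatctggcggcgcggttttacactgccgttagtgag
Ube2c (chr2:164769679-164769978, + strand): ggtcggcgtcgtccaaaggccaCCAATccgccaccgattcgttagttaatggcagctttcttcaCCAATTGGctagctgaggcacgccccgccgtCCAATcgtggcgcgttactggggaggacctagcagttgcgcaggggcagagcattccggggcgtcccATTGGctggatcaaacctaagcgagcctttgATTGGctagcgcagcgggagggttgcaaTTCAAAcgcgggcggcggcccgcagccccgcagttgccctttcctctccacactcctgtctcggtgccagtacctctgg
In the Ube2c promoter a CCAAT on one strand and a CCAAT on the other share 2 bases, so 6 CCAAT boxes are marked there beside 1 CHR.

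Promoters in the RefSeq table matched 34 of the 41 genes measured. The CHR letters stood in 26 of these 34 promoters (76.5%), where 21.7% of the promoters of 27025 genes held them. CCAAT boxes stood in 24 (70.6%, all genes 41.1%), and both motifs in 23 (67.6%, all genes 9.65%). A CHR whose first base lay 25 to 45 bases downstream of the first base of a CCAAT box was found in 12 of the 34 (35.3%) and in 0.958% of all genes, a spacing that was chosen after the matches in these promoters had been seen. In the promoters of 117 other mitosis genes, CHR letters stood in 45.3%, CCAAT boxes in 60.7%, both in 29.9% and the spaced pair in 8.55%. The first base of the CHR of Bub3 lay 43 bases before the start, between 2 CCAAT boxes at 74 and 32 bases before it. Cdk1 had a CHR 15 bases before the start with CCAAT boxes 48 and 80 bases before it, and Racgap1 had one 6 bases past the start.

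These letters were shared by genes of unlike genotype difference. The 26 genes with a CHR had a median log2 fold change of -0.19 (from -0.39 to 0.08), and the 8 without had -0.08 (from -0.38 to 0.08). Kif20a (-0.68) and Aurkb (-0.52), with the lowest values of the list, matched no promoter and are in neither group. The lowest value of the 8 was that of Mad2l1, without the letters, and the highest of the 26 that of Racgap1, which has them. A match is a description of the sequence, and binding was not measured.

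The arrays of a genotype did not lie alike over the list. Averaged over the 41 genes and set against the mean of the Sod2+/+ arrays, Sod2-/- replicate 31 lay at 0.02 on the log2 scale, replicate 35 at -0.26 and replicate 39 at -0.28. Sod2+/+ replicates lay at -0.09, 0.14, -0.09 and 0.04. Replicate 31 was thus among the Sod2+/+ arrays, and 18 of its 41 genes were below the Sod2+/+ mean against 39 and 38 in replicates 35 and 39. Sod2+/+ replicate 29 had the highest value of all arrays in 23 genes, Sod2-/- replicate 39 the lowest in 20 and replicate 35 in 17. The SD was larger among Sod2-/- than among Sod2+/+ arrays in 33 of the 41 genes (medians 0.20 and 0.13). It was larger in 1615 of the 2756 genes whose signal lay in the same range, where the medians were closer (0.19 and 0.16).

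Sod2+/+ replicates 17 and 29 and Sod2-/- replicate 31 were run on fluidics station 1, and the other 4 arrays on station 2. Within station 1 the median of the list was 0.0004, and within station 2 it was -0.28, with 0 of the 41 called in either, where 0.0% of all genes were called in each, so that these counts say nothing of the list. All Sod2+/+ arrays and Sod2-/- replicate 35 were of 1 chip lot, within which the median was -0.25 and 0 of the 41 were called (1.62% of all genes lower). Station 1 and this lot each hold 1 Sod2-/- array, which is assumed there to vary like the others. Sod2-/- replicates 31 and 39 were the only arrays of another lot, so for them lot and genotype cannot be told apart. With chip lot as a block, the genotype difference thus rests on replicate 35 against the Sod2+/+ arrays. That fit cannot check a call. Leaving out replicate 31 moved the median to -0.27, and the 1 gene called was then Kif20a in place of Bub3 (3.63% of all genes lower). Without replicate 35 the median was -0.10.

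Markers of other cells differed between the arrays too. Of 15 neutrophil marker genes measured (Elane, Mpo and Ltf among 16 listed), 15 had log2 fold changes below 0 (45.8% of all genes). Of these, 0 were called and 13 were lower at an unadjusted p under 0.05, where 4.47% and 18.4% of all genes were. The neutrophil markers had a median of -0.89 and mean log2 levels of 10.29 to 10.72 in Sod2+/+ and 9.02 to 10.32 in Sod2-/- arrays. Their means against Sod2+/+ were -0.14, -1.44 and -0.83 in replicates 31, 35 and 39, so the array nearest to Sod2+/+ in the mitotic genes was also nearest in these. B cell markers had another order, at -0.75, -0.53 and -0.58, with replicate 31 the farthest. They were called lower in 8 of 18, where 4.47% of all genes were (mean levels 5.67 to 5.81 against 4.98 to 5.20). Macrophage markers had 0 of 13 called and lay 1.14 above the Sod2+/+ mean in replicate 39. T cell and megakaryocyte markers had 0 of 7 and 0 of 6 called. The part of these cells in the mitotic values was not tested, and in sorted bulk RNA fewer cells of a type and less RNA per cell cannot be told apart.

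Erythroblast markers were strongly detected. The 15 measured of 18 listed had mean log2 levels from 9.39 to 13.06 and a median log2 fold change of 0.12. None of them was called, where 4.47% of all genes were called lower and 0.412% higher. Of the 15, 11 were above 0 (54.2% of all genes). Without adjustment 5 were higher and 1 lower, where 6.68% and 18.4% of all genes were. The ends were Kel, a blood group protein of the red cell surface, at 0.34 (SE 0.09, limma adjusted p = 0.0772) and Gfi1b, a repressor needed for red cell formation, at -0.52 (SE 0.15, adjusted p = 0.104). Of 7 genes of earlier progenitors 1 was called (4.47% of all genes lower). That was Myb, which fell by 1.24 on the log2 scale (limma adjusted p = 0.0303).

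Among the cyclins, CDK1 and its phosphatases, the list had a median of -0.22 over 5 genes. Of these, 0 were called (4.47% of all genes lower) and 2 were lower at an unadjusted p under 0.05. At that threshold 18.4% of all genes were lower, and 48.3% of those in the signal range of the list. Ccnb2, cyclin B2, had log2 values of 10.51, 10.61, 10.54 and 10.59 in Sod2+/+ and 10.36, 10.24 and 9.91 in Sod2-/- arrays. The Sod2+/+ arrays lay within a narrow band and all Sod2-/- arrays under it, replicate 39 far below the rest. The log2 fold change was -0.39 (SE 0.11, limma adjusted p = 0.0821), short of the threshold. Cdk1, the kinase that drives entry into mitosis, had 11.01, 11.09, 10.99 and 11.01 against 10.96, 10.79 and 10.64. Here too the genotypes were apart, with replicate 31 close under the Sod2+/+ arrays, and the log2 fold change was -0.23 (SE 0.08, adjusted p = 0.172).

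Ccna2, cyclin A2, did not share that order. Its values were 11.04, 11.06, 10.95 and 10.99 in Sod2+/+ and 11.20, 11.14 and 10.93 in Sod2-/- arrays, which enclosed the Sod2+/+ arrays from both sides, and the log2 fold change was 0.08 (SE 0.08, adjusted p = 0.636). A second probe set of Ccna2 had a log2 fold change of -0.30 (SE 0.12, adjusted p = 0.221). The phosphatases that activate CDK1, Cdc25b and Cdc25c, had -0.10 (SE 0.08) and -0.22 (SE 0.17), with overlapping genotypes.

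The mitotic kinases had a median of -0.14 over 4 genes. Aurkb, Aurora kinase B of the passenger complex, had 8.91, 9.27, 9.03 and 9.41 in Sod2+/+ and 8.94, 8.76 and 8.19 in Sod2-/- arrays. Replicate 31 lay inside the Sod2+/+ range and replicate 39 well under it, so the log2 fold change of -0.52 had an SE of 0.18 and an adjusted p of 0.162 (limma). The second probe set of Aurkb had -0.58 (SE 0.16, adjusted p = 0.0818), with separate genotypes. Aurka (Aurora kinase A of the spindle poles) and Plk1 (Polo-like kinase 1) had -0.09 (SE 0.11) and -0.20 (SE 0.13). Plk4, which starts centriole duplication, had 0.00 (SE 0.13), with an interval from -0.29 to 0.30.

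Spindle checkpoint and anaphase trigger genes had the most negative median of the 7 roles, -0.27 over 8 genes. At an unadjusted p under 0.05, 4 were lower, as were 18.4% of all genes and 48.3% of those in the signal range of the list. Of the 8, 1 was called (4.47% of all genes lower). That 1 was Bub3 (chr7:131560367-131571895, GRCm38.p6), whose protein brings Bub1 and Bub1b to the kinetochore. Bub3 had 10.56, 10.68, 10.57 and 10.71 in Sod2+/+ and 10.38, 10.30 and 10.24 in Sod2-/- arrays. Every Sod2-/- array was lower, and the spread within each genotype was small (SD 0.08 and 0.07). Bub3 fell by 0.32 on the log2 scale (SE 0.07, limma adjusted p = 0.0496), just inside the threshold. Of 21 alternatives the call held in 1, centring each array on its median (adjusted p = 0.0486, 4.35% of all genes lower), and the adjusted p was between 0.052 and 0.829 in the rest. Several alternatives called few or no genes at all, as set out in the last section. The probe set used is of a type that can pick up several transcripts, and the other 4 probe sets of Bub3 had log2 fold changes from -0.20 to 0.16, none called.

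Mad2l1, the checkpoint protein that holds Cdc20, had 9.71, 10.04, 9.72 and 9.94 in Sod2+/+ and 9.69, 9.37 and 9.36 in Sod2-/- arrays. Its genotypes were separate by a small gap only, between replicate 31 and Sod2+/+ replicate 17, and the log2 fold change was -0.38 (SE 0.12, adjusted p = 0.115). Espl1, the protease separase, had 8.74, 9.07, 8.74 and 8.75 against 8.73, 8.51 and 8.36, with a log2 fold change of -0.29 (SE 0.11, adjusted p = 0.208). Cdc20, the activator of the anaphase-promoting complex, had -0.26 (SE 0.10, adjusted p = 0.212), with replicate 31 inside the Sod2+/+ range. Another probe set of Cdc20 had a similar mean log2 signal (9.68 against 9.86). Its log2 fold change was -0.42 (SE 0.11, limma adjusted p = 0.0773), with separate genotypes. The kinases Bub1 and Ttk and the checkpoint protein Bub1b lay between -0.29 and -0.21, none called. The second probe set of Bub1b had -0.40 (SE 0.12, limma adjusted p = 0.106), with separate genotypes. Pttg1, the separase inhibitor securin, had 10.56, 10.57, 10.43 and 10.44 against 10.60, 10.32 and 10.80, so its Sod2-/- arrays were the lowest and the 2 highest of the 7 (log2 fold change 0.07, SE 0.11).

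Centromere and kinetochore genes had a median of -0.12 over 6 genes, 0 called (4.47% of all genes lower). Spc25, a subunit of the NDC80 complex that grips microtubules, had 9.263, 9.651, 9.433 and 9.525 in Sod2+/+ and 9.259, 9.002 and 9.208 in Sod2-/- arrays. The lowest Sod2+/+ and the highest Sod2-/- array were apart at the third decimal alone, and the log2 fold change was -0.31 (SE 0.11, limma adjusted p = 0.148). Its partners in the same complex, Ndc80 and Nuf2, had -0.15 (SE 0.14) and -0.07 (SE 0.10). Cenpa, the histone variant that marks the centromere, had -0.23 (SE 0.10, adjusted p = 0.248), and Cenpf, of the outer kinetochore, -0.10 (SE 0.10). Cenpe, a kinesin that moves chromosomes to the spindle equator, had 9.17, 9.01, 8.92 and 8.95 against 9.41, 8.96 and 8.90. Its log2 fold change of 0.08 (SE 0.13, adjusted p = 0.798) rested on replicate 31 alone, since the other Sod2-/- arrays lay within or below the Sod2+/+ range.

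Spindle motors and microtubule proteins had a median of -0.10 over 6 genes, 0 called (4.47% of all genes lower). Kif20a, a kinesin of the central spindle needed for cytokinesis, had the largest difference of the list. Its values were 7.33, 7.90, 7.51 and 7.84 in Sod2+/+ and 7.39, 6.90 and 6.61 in Sod2-/- arrays. Replicate 31 lay inside the Sod2+/+ range and the other Sod2-/- arrays well under it, and the log2 fold change was -0.68 (SE 0.20, 1.60-fold lower, limma adjusted p = 0.101). Without replicate 31 it was -0.89 (adjusted p = 0.0485). Tpx2, which activates Aurora kinase A on the spindle, had -0.31 (SE 0.12, adjusted p = 0.203). Kif11, the motor that pushes the spindle poles apart, had 0.07 (SE 0.11), and Kif4, Kif2c and Nusap1 lay between -0.10 and -0.07.

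Passenger complex and cytokinesis genes had the median nearest to 0 of the 7 roles, -0.04 over 7 genes. Of these, 0 were called and 0 had an unadjusted p under 0.05. Among all genes 4.47% were called lower and 18.4% were lower without adjustment. In the signal range of the list those shares were 13.2% and 48.3%. Birc5, the passenger protein survivin, had 11.32, 11.41, 11.37 and 11.44 in Sod2+/+ and 11.37, 11.12 and 11.12 in Sod2-/- arrays. Replicate 31 lay inside the Sod2+/+ range and the other Sod2-/- arrays were lower, with a log2 fold change of -0.18 (SE 0.08, limma adjusted p = 0.26). Racgap1, which joins Kif23 in centralspindlin, had 8.53, 8.65, 8.32 and 8.51 against 8.84, 8.44 and 8.48. Only replicate 31 was above all Sod2+/+ arrays, and the log2 fold change was 0.08 (SE 0.12, adjusted p = 0.751). Another probe set of Racgap1 had a similar mean log2 signal (8.22 against 8.54). Its log2 fold change was -0.21 (SE 0.14, limma adjusted p = 0.472), with overlapping genotypes, so the sign depended on the probe set. The dimmest, with a mean of 3.05, had 0.03 (SE 0.06). The scaffold Incenp, the microtubule bundler Prc1 and Kif23 lay between -0.07 and -0.01, and the ring protein anillin (Anln) at 0.03 (SE 0.12). Ect2, which switches on the contractile ring, had -0.20 (SE 0.18).

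Condensin and topoisomerase genes had a median of -0.20 over 5 genes, all below 0 and 0 called. Among all genes 45.8% were below 0 and 4.47% were called lower. In the signal range of the list those shares were 78.0% and 13.2%. Smc4, a core ATPase of condensin, had 10.89, 11.21, 11.00 and 11.35 in Sod2+/+ and 10.89, 10.87 and 10.82 in Sod2-/- arrays. The Sod2-/- arrays lay close together at the foot of a wide Sod2+/+ range, replicate 31 level with Sod2+/+ replicate 17 at the second decimal, with a log2 fold change of -0.25 (SE 0.11, adjusted p = 0.255). Another probe set of Smc4 had nearly the same mean log2 signal (10.99 against 11.00). Its log2 fold change was -0.01 (SE 0.07, adjusted p = 0.967), with overlapping genotypes. The dimmest probe set of Smc4, with a mean of 8.91, had -0.05 (SE 0.20), also with overlapping genotypes. The separation of Smc4 was thus seen on the brightest probe set alone. The partners of Smc4 (Smc2, Ncapd2 and Ncaph) had -0.19 (SE 0.11), -0.30 (SE 0.13) and -0.20 (SE 0.11). Top2a, the topoisomerase that untangles sister chromatids, had -0.15 (SE 0.10, adjusted p = 0.461).

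**Figure D2:**
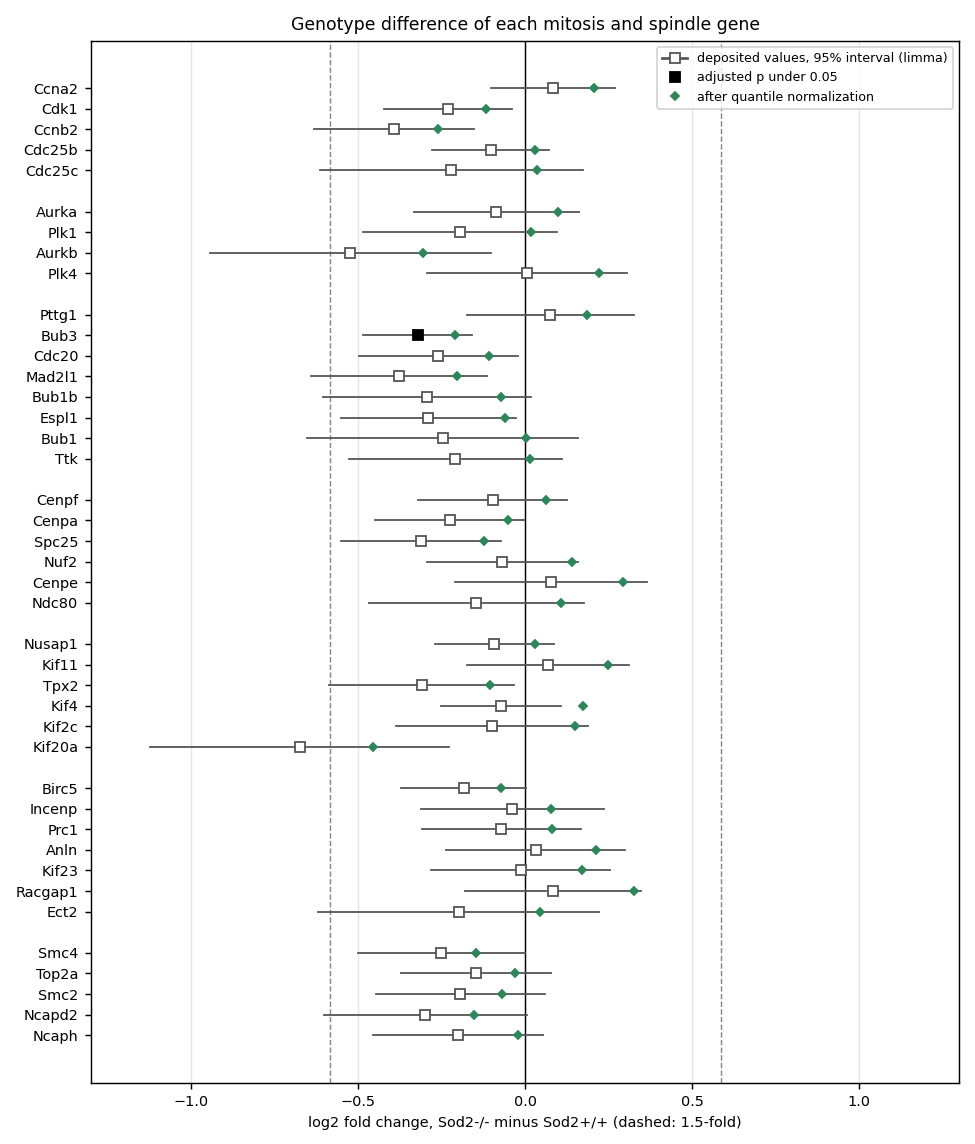
Log2 fold change (Sod2-/- minus Sod2+/+, x axis) of each gene with its unadjusted 95% interval from limma (squares and lines) and the value after quantile normalization (diamonds), grouped by role along the y axis, with dashed lines at 1.5-fold. Most intervals lie inside the dashed lines, Bub3 is the filled square, and the diamonds lie to the right of the squares in all genes drawn, with a median of 0.02.

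Genes of like signal are set beside the list here. The probe sets of the 41 genes had mean log2 signals from 7.27 to 11.31 (median 9.44), and signals of different probe sets do not rank transcripts. All 2756 genes in that range had a median log2 fold change of -0.27, and 13.2% of them were called lower and 1.42% higher. Without adjustment 48.3% were lower and 6.97% higher, and 78.0% had a log2 fold change below 0. Every Sod2-/- array lay under every Sod2+/+ array in 37.1%, and above in 5.44%. Of the mitosis and spindle genes, 2.44% were called lower and 0.0% higher, 29.3% were lower without adjustment, 82.9% were below 0 and 17.1% were separate and lower. At log2 signals from 8 to 10 the 23 genes of the list had a median of -0.20 and all 1435 genes -0.29, from 10 to 12 the 14 genes had -0.17 and all 387 genes -0.13, and from 6 to 8 the 4 genes had -0.22 and all 3630 genes -0.21. Whether the list differs from genes of like signal was not tested.

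The upper part of the signal scale itself differed between the deposited arrays. The 95th percentile of log2 values was 8.42 to 8.71 in Sod2+/+ and 8.20 to 8.42 in Sod2-/- arrays, while array medians lay between 4.45 and 4.54. Quantile normalization, which gives every array the same distribution, moved the median of the list up by 0.21 and left it at 0.02, beside -0.05 for all genes in the range. On that scale 4 genes were lower and 7 higher at an unadjusted p under 0.05, and the lowest adjusted p was that of Racgap1 (log2 fold change 0.33, limma adjusted p = 0.0589). The lowest values were those of Kif20a (-0.45), Aurkb (-0.31), Ccnb2 (-0.26), Bub3 (-0.21) and Mad2l1 (-0.20), which were also the lowest as deposited. The scale that is right for these cells was not tested.

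**Figure D3:**
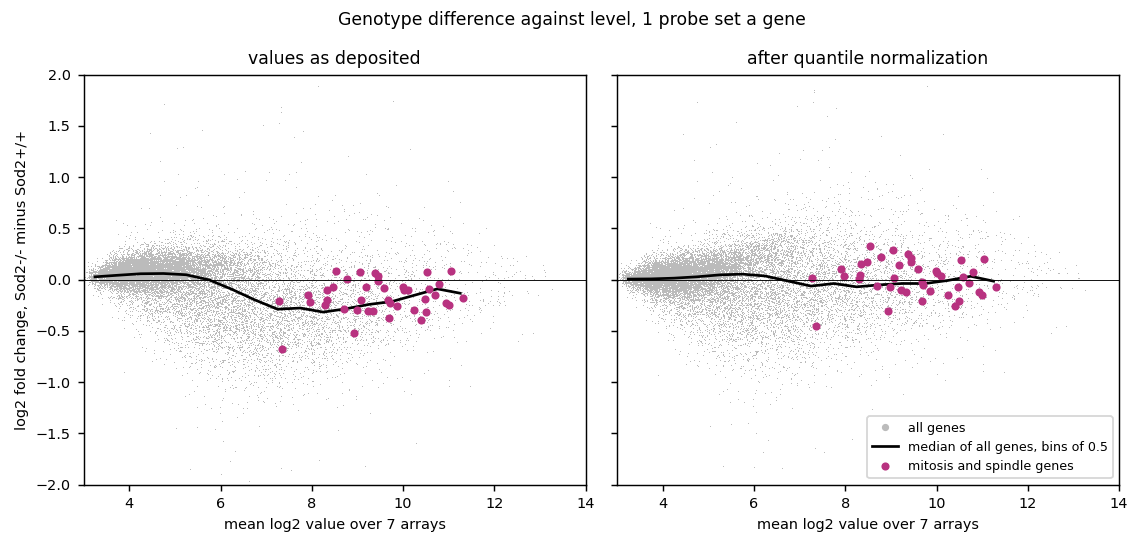
Log2 fold change (Sod2-/- minus Sod2+/+, y axis) against the mean log2 value over 7 arrays (x axis) for all genes (grey), their median in bins of 0.5 (line) and the mitosis and spindle genes (large points), as deposited on the left and after quantile normalization on the right. As deposited the line dips below 0 in the range of the list, where all genes had a median of -0.27, and after quantile normalization it lies near 0.

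Several genes were read by more than 1 probe set, and these often disagreed. Of 29 genes with several probe sets, 16 had log2 fold changes of both signs. The 53 dimmer probe sets had 32 values below 0 and 21 above (median -0.05), with 0 called (of all 45037 probe sets, 2.83% lower and 0.566% higher). Without adjustment 8 were lower and 9 higher, where 12.5% and 7.04% of all probe sets were. Genotypes were separate and lower in 4 of them and separate and higher in 7, where 10.2% and 7.84% of all probe sets were.

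Top2a showed the widest gap. Its probe set of second highest signal had 8.10, 8.56, 8.19 and 8.59 in Sod2+/+ and 9.07, 8.64 and 9.12 in Sod2-/- arrays, so that every Sod2-/- array was higher (log2 fold change 0.58, SE 0.16, limma adjusted p = 0.0857), against -0.15 on the brightest. For Kif11 a probe set had 7.09, 7.62, 7.00 and 7.41 against 7.72, 7.84 and 7.61, nearly separate and higher (0.44, SE 0.15, adjusted p = 0.14), and another had -0.28 (SE 0.17). Incenp had a probe set at 7.37, 7.62, 7.49 and 7.63 against 7.80, 7.81 and 7.96 (0.33, SE 0.09, adjusted p = 0.0771). The brightest probe sets of Kif11 and Incenp had 0.07 and -0.04, so in all 3 genes a dimmer probe set lay above the brightest. Spc25 had -0.31 on the brightest and 0.37 (SE 0.12, adjusted p = 0.129) on the other. In contrast, both probe sets of Aurkb, all 3 of Cdc20, all 3 of Bub1b and all 5 of Smc2 were below 0. Where on the transcripts these probe sets lie was not analysed here.

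**Figure D4:**
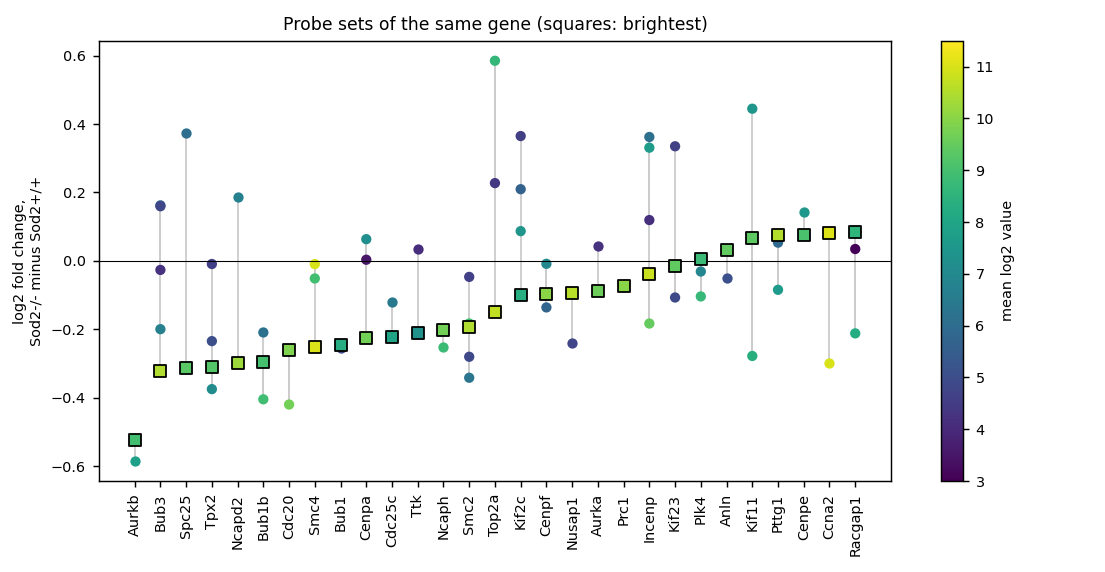
Log2 fold change (Sod2-/- minus Sod2+/+, y axis) of every probe set of the 29 mitosis and spindle genes that have several (x axis), with the brightest as squares and the others as circles, coloured by mean log2 value. In 16 genes the probe sets lie on both sides of 0, most widely in Top2a, from -0.15 to 0.58.

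The rest of the mitotic machinery gives the surroundings of the list. Over 7 further lists, 138 of 140 genes were measured, with 6 called lower (4.35%, all genes 4.47%) and 3 higher (2.17%, all genes 0.412%). Their median log2 fold change was -0.23, beside 0.02 for all genes and -0.27 for those in the signal range of the mitosis and spindle genes. Of the 138, 109 were below 0 (79.0%), and without adjustment 60 were lower (43.5%) and 5 higher (3.62%). Those shares of all genes were 45.8%, 18.4% and 6.68%, and of genes in that signal range 78.0%, 48.3% and 6.97%. Cohesin genes had a median of -0.27, other kinetochore genes -0.24, other condensin and chromosome genes -0.24, transcription factors of mitotic genes -0.21, other spindle and cytokinesis genes -0.18 and entry and exit regulators -0.15. None of these lists was tested as a list.

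The anaphase-promoting complex, the ubiquitin ligase that the checkpoint holds in check, had the most negative median of the 7, -0.37 over 18 genes, with 3 called lower and 1 higher (all genes 4.47% and 0.412%). Cdc27, a scaffold subunit that binds Cdc20, had 7.40, 7.71, 7.49 and 7.58 in Sod2+/+ and 7.10, 6.88 and 6.98 in Sod2-/- arrays and fell by 0.55 on the log2 scale (SE 0.09, limma adjusted p = 0.025). Averaged over all its probe sets the value was -0.10 (adjusted p = 0.449). Anapc2, the cullin of the complex, and Anapc10 fell by 0.66 (SE 0.11, adjusted p = 0.0267) and 0.83 (SE 0.15, adjusted p = 0.03). The signal of Anapc10 was low, with a mean log2 value of 4.77 beside a median of 4.48 over all tested values. With an offset of 32 added to the signal its log2 fold change was -0.38 (limma adjusted p = 0.0945). Each of these 3 calls was lost when Sod2+/+ replicate 29 or 37 or Sod2-/- replicate 35 or 39 was left out. Without replicates 29, 37, 35 and 39 in turn, 0.786%, 0.605%, 0.352% and 1.3% of all genes were called lower, against 4.47% with all arrays. The call of Anapc10 was also lost without replicate 31 (3.63% of all genes lower). With chip lot as a block, Cdc27, Anapc2 and Anapc10 had -0.66, -0.83 and -0.92, which set replicate 35 alone against the Sod2+/+ arrays. Ube2c, its ubiquitin-carrying partner, went the other way with 11.72, 11.57, 11.54 and 11.59 against 11.99, 11.99 and 12.33. Every Sod2-/- array was higher (log2 fold change 0.50, SE 0.10, adjusted p = 0.0379). The call was lost when any 1 of the 7 arrays was left out (adjusted p from 0.0505 to 0.0963). In those fits from 0.066% to 0.275% of all genes were called higher, against 0.412% with all arrays. With chip lot as a block the value of Ube2c was 0.38.

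Of the other calls, Wapl, which releases cohesin from chromosomes, rose by 0.64 (SE 0.09, adjusted p = 0.0167), from 8.60, 8.71, 8.63 and 8.69 to 9.11, 9.31 and 9.46. The call was lost without replicate 35 (adjusted p = 0.0664), where 0.066% of all genes were called higher. The value of Wapl was 0.66 with chip lot as a block, and the mean over its probe sets was 0.10 (adjusted p = 0.449). Bora, the activator of Aurora kinase A and Plk1, rose by 0.48 (SE 0.09, adjusted p = 0.0281), and of 7 fits that each left out an array the call held in the 1 without Sod2-/- replicate 35. It was lost over the mean of the probe sets of Bora (0.05, adjusted p = 0.791), and with chip lot as a block the value was 0.30. Haus1 of the augmin complex and Tubg1, the gamma-tubulin that seeds microtubules, fell by 0.79 (SE 0.11, adjusted p = 0.0167) and 0.80 (SE 0.14, adjusted p = 0.027) respectively. The call of Haus1 was lost when Sod2+/+ replicate 37 or Sod2-/- replicate 35 was left out (0.605% and 0.352% of all genes lower). With chip lot as a block its value was -0.72. Of the fits that left out an array, the call of Tubg1 held only without Sod2+/+ replicate 33 or Sod2-/- replicate 31. In those, 4.09% and 3.63% of all genes were called lower. Cenpk, of the inner kinetochore, fell by 0.56 (SE 0.12, adjusted p = 0.0462), and of the fits that left out an array the call held in that without Sod2-/- replicate 31. With chip lot as a block the value was -0.70, and the mean over the probe sets of Cenpk was -0.10 (adjusted p = 0.617). Mki67, the proliferation antigen Ki-67, had 12.35, 12.45, 12.42 and 12.43 in Sod2+/+ and 12.67, 12.51 and 12.58 in Sod2-/- arrays, with a log2 fold change of 0.17 (SE 0.07, adjusted p = 0.209). Mybl2, a transcription factor of mitotic genes, had -0.62 (SE 0.17, adjusted p = 0.088), and its partner Foxm1 0.02 (SE 0.08).

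The 46 genes of the DNA replication machinery, which acts in S phase, had a median log2 fold change of -0.45, beside -0.19 for the mitosis and spindle genes. Of the 46, 10 were called lower (21.7%) and 0 higher, and 45 were below 0 (97.8%), with an unadjusted p under 0.05 in 37 (80.4%). Those shares were 4.47%, 45.8% and 18.4% of all genes, and 13.2%, 78.0% and 48.3% of genes in the signal range of the mitosis and spindle genes. After quantile normalization the medians were -0.29 and 0.02. Averaged over the list, replication genes lay at -0.27, -0.43 and -0.77 in Sod2-/- replicates 31, 35 and 39, so that replicate 31 was below the Sod2+/+ mean for these genes and not for the mitotic ones (0.02). Pold2, a subunit of DNA polymerase delta, fell by 1.06 on the log2 scale (SE 0.13, limma adjusted p = 0.0121). The call held in all 7 fits that left out an array. With chip lot as a block, replicate 35 alone against the Sod2+/+ arrays, the value was -0.99. Lot and genotype were thus not separated for the other Sod2-/- arrays. Rpa3 and Rfc3, of the single-strand binding protein and the clamp loader, fell by 0.93 (SE 0.18, adjusted p = 0.033) and 0.91 (SE 0.13, adjusted p = 0.0185). Both calls were lost when Sod2+/+ replicate 29 or 37 or Sod2-/- replicate 35 was left out (0.786%, 0.605% and 0.352% of all genes lower). That of Rpa3 was also lost without replicate 39 (1.3% of all genes lower). With chip lot as a block the values of Rpa3 and Rfc3 were -0.71 and -0.80. After quantile normalization Pold2 and Rfc3 were still called (limma adjusted p = 0.0109 and 0.0278), where 2.78% of all genes were lower. The rest of the 10 calls were lost on that scale, Rpa3 among them (adjusted p = 0.0645). The difference between the 2 lists was not tested. CHR letters stood in 23.1% of 39 replication promoters.

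**Figure D5:**
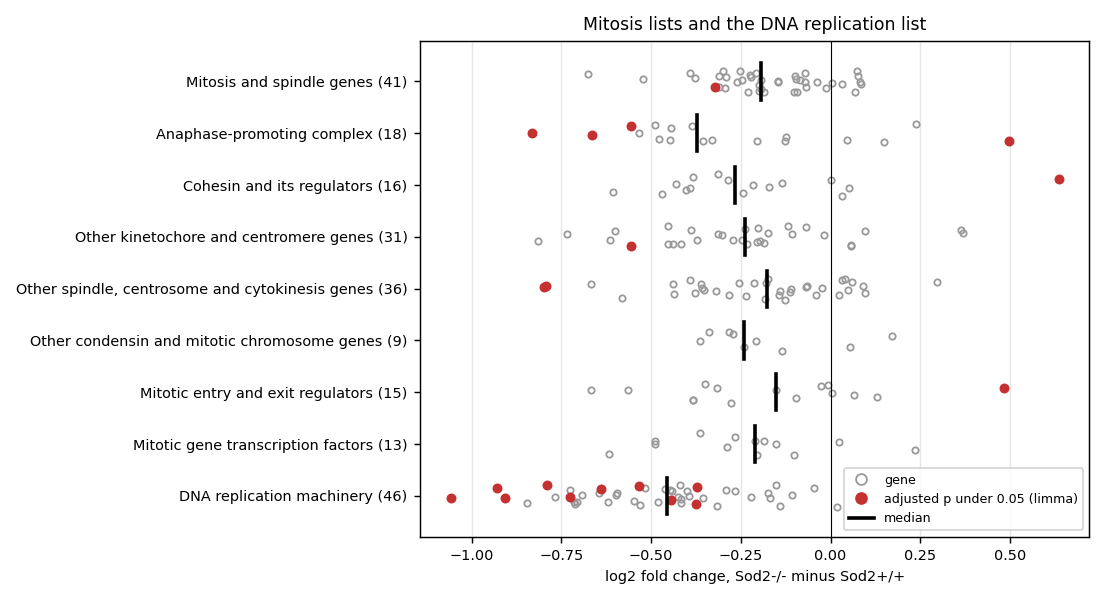
Log2 fold change (Sod2-/- minus Sod2+/+, x axis) of each gene of the mitosis and spindle list, 7 further mitosis lists and the DNA replication list (rows, with the number of genes measured), with filled red points for limma adjusted p under 0.05 and bars for medians. The median of the mitosis and spindle list is -0.19 and that of DNA replication -0.45, with 1 and 10 filled points.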

How the data were processed

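RNA of sorted erythroblasts was read on Affymetrix mouse expression arrays, 1 a sample. The values used are the log2 expression values that the authors deposited, made by RMA, with GCOS 1.3.037 also named in the submitters' processing notes. By the methods RMA was run in GeneSifter on 4 arrays a genotype, with analyses also made without 1 Sod2-/- array of slightly degraded RNA. Whether that is the array not analysed here, and which run gave the deposited values, is not stated. The number of arrays limits the precision. Fluidics station and chip lot were read from the deposited text settings of each array.

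Control probe sets (64 of 45101) were left out and 45037 were tested. Probe sets were named through the platform annotation and RefSeq (GRCm38.p6, 99.4% of gene IDs matched), where 34945 matched 1 gene, 932 several and 9160 none. A gene was read by its probe set of highest mean over all 7 arrays among those matched to it alone. Genotypes were compared with the lmFit and eBayes functions of limma 3.58.1 (R 4.3.3), genotype being the sole term, with Benjamini-Hochberg adjustment over all probe sets and a threshold of adjusted p under 0.05. The pipeline was tested on simulated data. Gene groups are described by counts and medians, with no test of a group. The 21 alternatives covered the methods' t-test (its form is not stated, so both were run), variance and weighting options, scaling, an offset, a filter on dim probe sets, station, lot, a gene's mean over its probe sets and leaving out each array. Any member may be named; values per array are given for members past the threshold, the 3 of largest change in each direction, the 2 of highest signal and some others, among them examples of the 16 whose probe sets differ in sign. Of other lists, genes past the threshold are named or, in a list with more than 4, the 3 of largest change.

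The members and the other gene lists were chosen with earlier results of these data known. The labels do not say more of the replicates than their numbers, so p-values measure the spread between these samples alone.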

Additional observations from a re-analysis of the deposited data

Results flagged for a closer look

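Sod2+/+ replicate 29 lay far above the other 3 Sod2+/+ arrays in 6 of the 41 mitosis and spindle genes, by Dixon's criterion for groups of 4 (0.829), which chance meets in about 1 of 20 groups. Its log2 values were 10.30 for Cdc25b, 8.34 for Cdc25c, 9.25 for Bub1b, 10.18 for Prc1, 9.07 for Espl1 and 10.60 for Ncapd2. The gap to the next array was between 0.836 and 0.970 of the range of the group. All 6 were on the high side and in the same array, so they are not 6 independent findings.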

How the results depend on the processing

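Bub3 was the 1 gene of 41 called lower, and that count was 1 with each array centred on its median. It was 0 with the methods' t-test of equal or of unequal variances and within station 1 or station 2, but these called 2, 0, 0 and 0 of all 18193 genes and so say nothing of the list. It was also 0 with trend and robust estimation (4.47% of all genes lower), array weights (3.79%), quantile normalization (2.78%) and an offset of 32 (0.649%). The same held with bright probe sets alone (11.1% of genes lower), fluidics station as a block (2.7%) and a gene's mean over its probe sets (4.11%). With chip lot as a block or within the chip lot of the Sod2+/+ arrays, the median was -0.25, resting on Sod2-/- replicate 35 alone. When each array was left out in turn the count was from 0 to 1, the 1 being Kif20a without Sod2-/- replicate 31. In those fits from 0.352% to 4.09% of all genes were called lower. Under these alternatives 0 of the 41 genes were called higher. Where few of all genes were called, a count of 0 says little of the list. The median log2 fold change stayed below 0 except with quantile normalization (0.0166) and within station 1 (0.0004, with 1 Sod2-/- array, assumed to vary like the others), and lay from -0.27 to -0.10 when each array was left out. Why these values moved was not tested. With 3 and 4 arrays, the 95% interval of 10 of the 41 genes reached past 1.5-fold lower, so a decrease of that size lay within their error. No paired analysis was possible because the labels do not say which samples were sorted as a pair, and the genotypes share no replicate number.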
